A study of Mus musculus with 8 samples.

Results

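Integrins and laminins were taken as every gene of the liver count table whose symbol names an integrin alpha chain (Itga), an integrin beta chain (Itgb) or a laminin alpha, beta or gamma chain (Lama, Lamb or Lamc). The rule used symbols only, and it found 36 genes of 19642: 17 integrin alpha chains, 8 integrin beta chains and 11 laminin chains. Itgad, a leukocyte alpha chain, was not analysed here. RNA came from whole livers of male mice on a C57BL6 background that were fed a chow diet (CD), with 4 WT and 4 N-LKO mice. N-LKO mice lack the Nogo-B receptor (NgBR, gene Nus1) in the liver, through Cre recombinase driven by the albumin promoter and loxP sites in Nus1. The albumin promoter is active in hepatocytes, so the other cells of the liver are not its main target. Whether the WT mice carried albumin-Cre or a floxed allele is not stated in the labels. How long the mice were fed is uncertain, since the sample titles state 8 weeks and their treatment entries 16 weeks.

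Integrins are receptors made of 1 alpha and 1 beta chain that span the cell membrane and hold cells to the matrix around them. Laminins are large secreted proteins of the basement membrane, each built from 1 alpha, 1 beta and 1 gamma chain, and several integrins bind them. In liver, basement membranes surround bile ducts and vessels, whereas the sinusoids that hepatocytes face have only a sparse matrix. Both families carry many N-linked sugars, and NgBR is a subunit of the enzyme that makes dolichol, the lipid on which those sugars are assembled.

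Only Itga8, which was higher in N-LKO livers, and Lamb3, which was lower, passed the test for a difference between the genotypes, so the sequence around their start sites is shown first. Both sequences are from RefSeq on GRCm38.p6 and are 300 bases long, most of them upstream of the annotated start. The Itga8 window is chr2:12301895-12302194 on the minus strand. The Lamb3 window is chr1:193301744-193302043 on the plus strand, and it belongs to the first of 2 RefSeq starts that lie 249 bases apart. Capitals mark a match to a searched motif.
Itga8: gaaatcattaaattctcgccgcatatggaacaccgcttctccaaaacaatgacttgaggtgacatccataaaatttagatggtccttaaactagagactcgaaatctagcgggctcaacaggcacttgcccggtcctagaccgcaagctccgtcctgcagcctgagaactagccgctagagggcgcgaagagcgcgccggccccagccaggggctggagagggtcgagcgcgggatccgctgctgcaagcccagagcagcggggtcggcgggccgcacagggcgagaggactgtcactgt
Lamb3: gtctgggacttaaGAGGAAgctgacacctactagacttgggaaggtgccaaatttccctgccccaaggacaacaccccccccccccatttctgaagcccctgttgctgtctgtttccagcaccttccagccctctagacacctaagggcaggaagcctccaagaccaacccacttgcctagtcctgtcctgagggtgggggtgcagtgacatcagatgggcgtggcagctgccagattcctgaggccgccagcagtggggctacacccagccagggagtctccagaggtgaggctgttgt
The motifs searched on both strands were TGANTCA (bound by AP-1 factors), GGAATG (bound by TEAD factors) and GAGGAA (bound by PU.1 and other ETS factors). The Itga8 window held none of these letter runs, and the first Lamb3 window held GAGGAA once, 237 bases before the start. The second Lamb3 window held GGAATG once, on the other strand. Among all 32851 RefSeq promoters of this length, TGANTCA was present in 7.81%, GGAATG in 14.7% and GAGGAA in 28.3%. Of the 36 genes, 23 had a promoter in the RefSeq table, and among their 26 promoters the 3 motifs were present in 3, 3 and 14. The windows also differed in CpG dinucleotides, with 23 in that of Itga8 and 2 in the first of Lamb3, beside a median of 7 over all promoters (quartiles 3 and 20). GC content was 59% and 59.3%, so the difference in CpG was not one in overall base composition. A match is a description of letters and not a binding site.

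Each library held between 14688404 and 18585412 counts, and the deleted gene followed the labels. Nus1 stood at 82.0, 90.4, 90.5 and 89.7 CPM in WT replicates 1 to 4 and at 33.3, 36.2, 38.8 and 38.7 CPM in N-LKO replicates 1 to 4 (log2 fold change -1.26, adjusted p = 3.06e-05). CPM are the counts of a gene relative to the TMM-scaled total of its library, and each series of 4 values below follows the same order of replicates. Log2 fold changes are N-LKO against WT, and adjusted p-values come from the quasi-likelihood test of edgeR. They were corrected by the Benjamini-Hochberg method for the 14214 genes with enough counts to be tested, and a value under 0.05 made a gene called.

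Of the 36 genes, 30 were tested and 2 were called by edgeR, 1 in each direction. DESeq2, run as another tool without the filter, called 5 members, namely these 2 with Itga2, Itgb8 and Lamc3 as higher, and 394 genes in all against 148 by edgeR. Over all 14214 genes 1.04% were called, 0.823% as higher and 0.218% as lower in N-LKO livers. An unadjusted p under 0.05 was reached by 11 of the 30 members, 10 higher and 1 lower, and by 12.8% of all genes. The 4 N-LKO livers lay wholly above or wholly below the 4 WT livers for 8 of 30 members and for 7.52% of all genes. These 8 divided into 6 higher and 2 lower members, where all genes gave 4.2% and 3.32%. The median log2 fold change was 0.12 over the members tested and -0.0033 over all genes tested, and 21 of 30 members had a positive value against 49.3% of all genes. By family, 19 integrin chains had a median of 0.11 and 11 laminin chains one of 0.50.

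**Figure D1:**
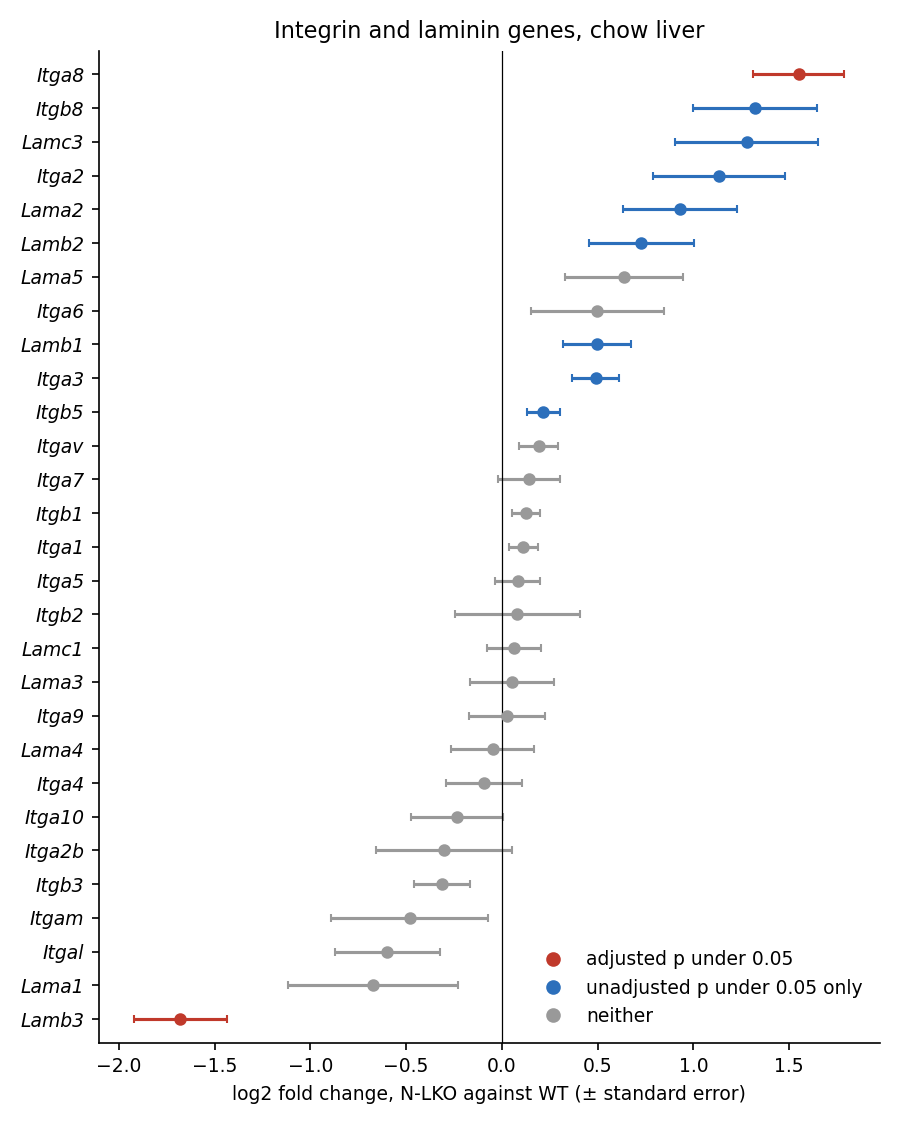
Log2 fold change of N-LKO against WT livers for the tested integrin and laminin chains reported here, with bars of 1 standard error, 1 gene per row in order of the fold change and colour for the test result. Itga8 at 1.55 and Lamb3 at -1.68 were the called genes, and the other chains shown lay between these values.

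Lamb3 fell and was the only laminin chain called. It encodes a beta chain that pairs with the product of Lama3 in the laminin that anchors epithelia. The gene spans chr1:193207699-193343878 on the plus strand of GRCm38. Its level was 17.1, 19.95, 26.9 and 26.2 CPM in WT livers and 5.22, 11.3, 5.97 and 5.70 CPM in N-LKO livers, from 319 to 475 counts per WT library and from 84 to 171 per N-LKO library. All N-LKO livers were below all WT livers, and N-LKO replicate 2 stood apart from the other N-LKO livers, between them and the lowest WT liver. The means were 22.5 ± 4.78 (SD, n = 4) and 7.05 ± 2.85 (SD, n = 4), or 31.3% of WT, and the log2 fold change was -1.68 with a standard error of 0.241 (adjusted p = 0.00851, edgeR). When single mice were left out it ranged from -1.997 to -1.56 and Lamb3 was called in all 8 fits.

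Lamb3 overlaps Hsd11b1, the gene of the enzyme that regenerates active glucocorticoid in liver. Hsd11b1 lies on the opposite strand at chr1:193221634-193264075, so all of its 42442 bases are inside the 136180 bases of Lamb3. The exons of the genes share 0 bases in the GENCODE M21 annotation. Of 9 annotated Lamb3 transcripts, 4 begin before Hsd11b1 and 5 begin beyond it. Both RefSeq starts are of the second kind, 37919 and 38168 bases past the end of Hsd11b1.

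**Figure D2:**
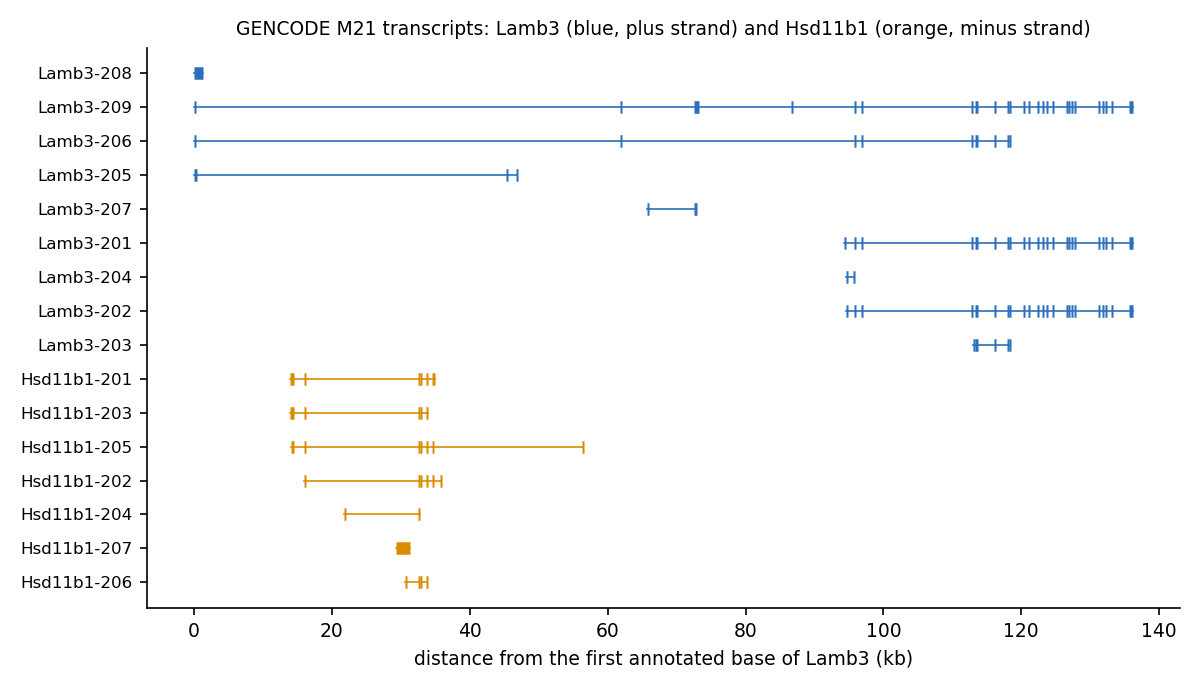
Map of the Lamb3 gene on chromosome 1 of GRCm38, with distance from its first annotated base in kb along the horizontal axis, lines for transcripts and boxes for exons of Lamb3 and Hsd11b1. The Hsd11b1 transcripts lie between the first Lamb3 exons and most of its later exons, with 0 exon bases in common.

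Hsd11b1 was more abundant than Lamb3 and was not called. It stood at 212, 265, 315 and 310 CPM in WT livers and at 231, 233, 225 and 261 CPM in N-LKO livers (log2 fold change -0.21, adjusted p = 0.506). The genotypes overlapped, since WT replicate 1 was the lowest liver of all. As a percent of the Hsd11b1 value of the same liver, Lamb3 was at 8.08%, 7.52%, 8.54% and 8.46% in WT and at 2.26%, 4.85%, 2.65% and 2.19% in N-LKO mice. This ratio varied little among WT livers, and all N-LKO livers were below it. Whether the authors' counting used the strand of the reads is not stated, so reads from unspliced RNA of either gene could not be assigned by strand with certainty. Hsd11b1 lies 13.9 to 56.4 kb from the first base of Lamb3. Within it, the only annotated Lamb3 exons are short ones of a processed transcript, at 45.3 and 46.7 kb. How far reads were shared was not tested. Of the other genes that overlap Lamb3, without shared exon bases, G0s2 ranged from 27.3 to 75.3 CPM in WT and from 14.0 to 49.8 CPM in N-LKO livers (log2 fold change -0.96, adjusted p = 0.364). Gm37691 ranged from 3.13 to 4.801 and from 2.31 to 3.83 CPM (log2 fold change -0.51, adjusted p = 0.343). Neither gene was called by edgeR, although G0s2 was called as lower with the title number as a replicate block (adjusted p = 0.0229, edgeR).

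Lamb1, Lamb2, Lamc1 and Lamc3 had positive log2 fold changes and none of them was called by edgeR. Lamb1 and Lamb2 encode the beta chains of most basement membranes. Lamb1 was at 5.29, 4.82, 6.66 and 6.73 CPM in WT and at 5.78, 8.78, 9.36 and 9.37 CPM in N-LKO livers (log2 fold change 0.50, standard error 0.179, adjusted p = 0.260). Lamb2 was at 2.24, 1.75, 1.90 and 1.71 CPM in WT and at 1.64, 3.89, 4.11 and 3.06 CPM in N-LKO livers (log2 fold change 0.73, standard error 0.274, adjusted p = 0.288). For both genes N-LKO replicate 1 lay among or below the WT livers and replicates 2 to 4 lay above all of them. Lamc3 was at 1.07, 1.25, 1.97 and 0.938 CPM in WT and at 1.47, 2.71, 5.11 and 3.40 CPM in N-LKO livers (log2 fold change 1.28, standard error 0.372, adjusted p = 0.166). N-LKO replicate 1 was again the lowest of its group and lay within the WT range. Lamc1, the gamma chain of most laminins, averaged 13.9 ± 1.12 CPM in WT and 14.6 ± 3.05 CPM in N-LKO livers (SD, n = 4 each; log2 fold change 0.06).

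Among the 5 laminin alpha chains, which carry the sites that integrins bind, none was called by edgeR or DESeq2, 1 had an unadjusted p under 0.05 and the median log2 fold change was 0.05. Lama2, the alpha chain known best from muscle, was at 1.34, 2.50, 2.41 and 2.15 CPM in WT and at 2.50, 6.07, 4.38 and 3.06 CPM in N-LKO livers (log2 fold change 0.93, standard error 0.298, adjusted p = 0.206). Its groups met at N-LKO replicate 1 and WT replicate 2. Lama5 had a mean of 1.36 CPM in WT and 2.10 CPM in N-LKO livers, and Lama1 2.03 and 1.29 CPM. Lama4, a chain of vessel walls, had means of 3.79 and 3.67 CPM. Lama3, the alpha chain partner of Lamb3, had means of 2.23 and 2.33 CPM, a log2 fold change of 0.05 beside the -1.68 of Lamb3.

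Itga8 rose and was the only integrin chain called. It encodes the alpha chain that pairs with the beta chain of Itgb1 and binds matrix ligands with the RGD motif, and in liver it is known from stellate cells and fibroblasts. The gene spans chr2:12106632-12301922 on the minus strand of GRCm38. Its level was 5.34, 3.94, 7.23 and 6.02 CPM in WT livers and 10.6, 18.6, 22.6 and 14.4 CPM in N-LKO livers, from 63 to 114 counts per WT library and from 187 to 340 per N-LKO library. Every N-LKO liver was above every WT liver, and the N-LKO livers spread more widely, with replicate 1 lowest and replicate 3 highest. The means were 5.63 ± 1.37 (SD, n = 4) and 16.5 ± 5.17 (SD, n = 4), a ratio of 2.94, and the log2 fold change was 1.55 with a standard error of 0.239 (adjusted p = 0.0120, edgeR). When single mice were left out it ranged from 1.36 to 1.72, and Itga8 was called in all 8 fits. An antisense gene, E030013I19Rik, shares 372 exon bases with Itga8 and reached at most 8.03 counts in any library.

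The other chains of integrins that bind fibronectin, vitronectin and further RGD ligands had a mixed pattern. Of 8 such chains, 7 were tested, 1 was called (Itga8) and the median log2 fold change was 0.19. Itgb8, whose product pairs with the Itgav chain and binds latent TGF-beta, was at 0.748, 1.06, 1.40 and 0.717 CPM in WT and at 1.53, 3.30, 3.05 and 1.90 CPM in N-LKO livers (log2 fold change 1.32, standard error 0.323, adjusted p = 0.101). Itgb5, another partner of Itgav, was at 30.8, 26.8, 31.8 and 33.3 CPM in WT and at 33.6, 37.6, 37.8 and 33.7 CPM in N-LKO livers (log2 fold change 0.22, standard error 0.0871, adjusted p = 0.327). The genotypes did not overlap in either gene, though for Itgb5 the gap between WT replicate 4 and N-LKO replicate 1 was small. Itgav itself averaged 30.8 ± 2.71 CPM in WT and 35.2 ± 4.29 CPM in N-LKO livers (SD, n = 4 each; log2 fold change 0.19, adjusted p = 0.480). Itga5, the main fibronectin receptor chain, averaged 16.7 and 17.7 CPM. Itgb3 and Itga2b encode the integrin of platelets, and Itgb3 also pairs with Itgav. Itgb3 averaged 4.09 ± 0.453 CPM in WT and 3.29 ± 0.320 CPM in N-LKO livers (SD, n = 4 each), with no overlap and an adjusted p of 0.414 from the edgeR test, and Itga2b averaged 0.985 and 0.792 CPM.

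The alpha chains that bind laminin and collagen included 2 with an unadjusted p under 0.05. Itga3, whose product binds the laminin that contains the Lamb3 chain, was at 3.26, 3.44, 3.55 and 3.26 CPM in WT and at 4.82, 4.69, 4.65 and 4.82 CPM in N-LKO livers (log2 fold change 0.49, standard error 0.123, adjusted p = 0.108). Its values were tightly grouped within each genotype and did not overlap. Itga6 averaged 2.49 ± 0.328 CPM in WT and 3.54 ± 2.00 CPM in N-LKO livers (SD, n = 4 each), where 1 N-LKO liver, replicate 2, stood at 6.34 CPM. Itga7 averaged 5.29 and 5.84 CPM. Itga2, a collagen receptor chain, was at 3.53, 2.88, 1.27 and 0.883 CPM in WT and at 4.65, 4.22, 5.04 and 4.96 CPM in N-LKO livers (log2 fold change 1.13, standard error 0.344, adjusted p = 0.182). Here the spread was in the WT group, and all N-LKO livers were above it. Itga1, the more abundant collagen receptor chain, averaged 46.8 and 50.6 CPM, and Itga10 1.58 and 1.34 CPM.

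Itgb1, the beta chain that most of these alpha chains share, was at 201, 185, 217 and 212 CPM in WT and at 221, 227, 221 and 219 CPM in N-LKO livers. All N-LKO livers were above all WT livers by a small margin (log2 fold change 0.13, standard error 0.0723, adjusted p = 0.512).

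**Figure D3:**
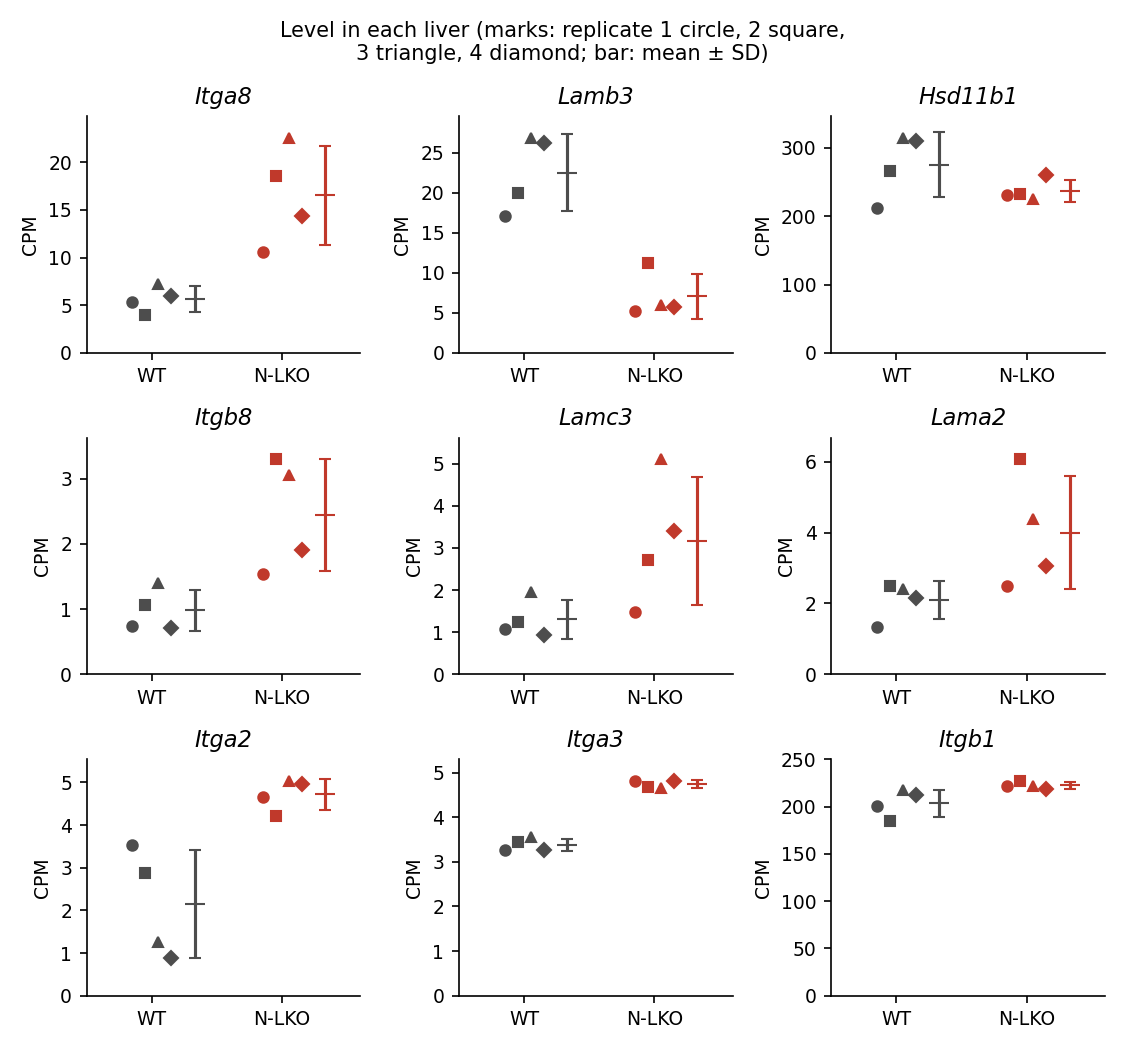
CPM in each of the 4 WT and 4 N-LKO livers for 8 integrin and laminin chains and Hsd11b1, with the mark showing the replicate and bars for mean ± SD, and each vertical axis starting at 0. Genotypes do not overlap for Itga8, Lamb3, Itgb8, Itga2, Itga3 and Itgb1, whereas they overlap for Lamc3, Lama2 and Hsd11b1.

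Of the integrin chains of leukocytes and the Itga4 and Itga9 chains, 5 were tested, none was called by edgeR or DESeq2 or had an unadjusted p under 0.05, and the median log2 fold change was -0.09. Itgal, the alpha chain of a lymphocyte integrin, averaged 6.01 ± 2.02 CPM in WT and 4.00 ± 1.26 CPM in N-LKO livers (SD, n = 4 each; log2 fold change -0.60, adjusted p = 0.394). Itgam, the alpha chain of neutrophils and macrophages, averaged 1.45 and 1.05 CPM, and Itgb2, the beta chain of both, averaged 3.12 and 3.35 CPM. Itga4 averaged 13.3 and 12.5 CPM and Itga9 12.98 and 13.3 CPM. Itga4 shares 1124 exon bases with Cerkl on the opposite strand, so their reads may be mixed. Itgam shares 3450 of its 5024 exon bases with Gm49368 on the same strand, a gene without counts here, so its level may be affected too. In all, 11 of the 36 members share exon bases with another annotated gene, and for 8 of them that gene is on the opposite strand.

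The 6 members that failed the filter were Itga11, Itgae, Itgax, Itgb4, Itgb6 and Itgb7, and none of them had more than 18 counts in a library. Their WT and N-LKO means were 0.0276 and 0.175 CPM for Itga11, 0.101 and 0.190 CPM for Itgae and 0.269 and 0.823 CPM for Itgax. For Itgb4, the beta chain of hemidesmosomes, they were 0.164 and 0.390 CPM, for Itgb6 0.0867 and 0.313 CPM and for Itgb7 0.529 and 0.179 CPM. At this depth 3 counts are the limit that a count of 0 allows, and no fold is given for these genes.

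Levels of different chains were compared per kb of exon. In WT livers Lamb3 was the highest laminin chain at 3.41 CPM per kb, ahead of Lamc1 at 1.69 CPM per kb. In N-LKO livers Lamb3 was at 1.06 CPM per kb and Lamc1 at 1.76 CPM per kb, so Lamc1 was first and Lamb3 second. Lama3, its alpha chain partner, was lower in both genotypes, at 0.207 and 0.216 CPM per kb. Lamb3 made up 74.1% to 80.5% of the summed beta chains in WT livers and 35.8% to 52.8% in N-LKO livers. The share of Lamb1 ranged from 12.8% to 15.3% and from 27.4% to 40.9%, and that of Lamb2 from 5.71% to 10.6% and from 16.5% to 26.8%. None of these 3 shares overlapped between the genotypes. They are bound to each other, since a lower Lamb3 raises the shares of the other beta chains.

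Among integrin alpha chains Itga8 had rank 7 of 17 in WT livers at 0.764 CPM per kb and rank 4 in N-LKO livers at 2.24 CPM per kb. Itga5, Itgav and Itga1 were above it in both, at 3.38, 2.86 and 2.52 CPM per kb in WT livers. Of the summed 12 alpha chains known to pair with Itgb1, Itga8 made up 4.17% to 6.73% in WT and 9.20% to 16.2% in N-LKO livers. Itgb1 was at 45.3 to 53.2 CPM per kb in WT and 53.7 to 55.7 CPM per kb in N-LKO livers, above the sum of those 12 alpha chains at 12.8 to 15.2 and 15.6 to 19.2 CPM per kb. It made up 81.6% to 83.2% of summed beta chains in WT and 80.8% to 83.4% in N-LKO livers, and these ranges overlapped.

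**Figure D4:**
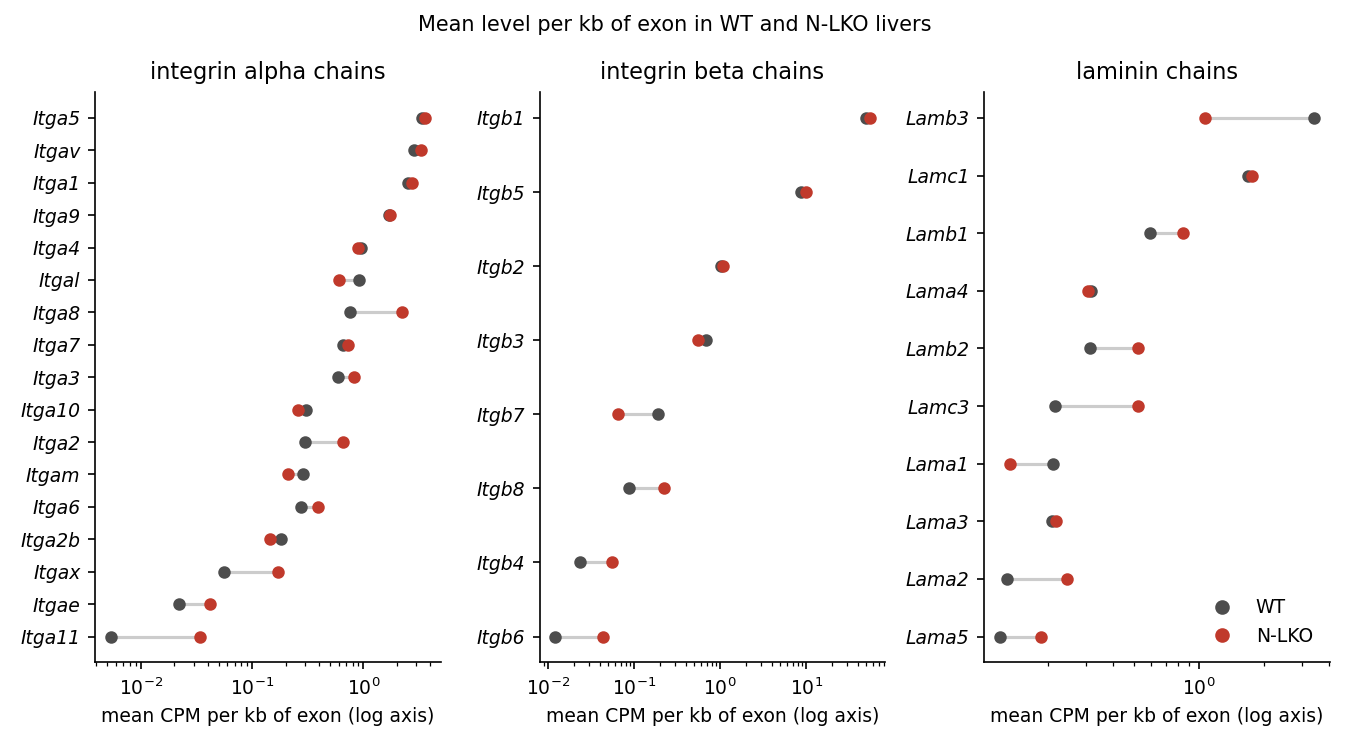
Mean CPM per kb of exon on a log axis for the integrin alpha, integrin beta and laminin chains reported here, with 1 mark for the 4 WT and 1 for the 4 N-LKO livers in each row, ordered by the WT level. Lamb3 moves from 3.41 to 1.06 and Itga8 from 0.764 to 2.24, while Itgb1 stays highest of the beta chains at 49.9 and 54.5.

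The N-LKO livers differed among themselves in a shared way. Of the 10 members with an unadjusted p under 0.05 and a higher level in N-LKO mice, N-LKO replicate 1 was the lowest of its group in 8, and replicate 3 was the highest in 6. Such a count was not made over all genes, so whether this order is particular to the members was not tested. Without N-LKO replicate 1, the genotypes did not overlap for 14 of 30 members in place of 8, and for 11.1% of all genes in place of 7.52%.

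Markers of other liver cells were summed in the same livers. Their counts stand beside 1.04% of all genes called and 12.8% with an unadjusted p under 0.05 (edgeR). The 9 cholangiocyte markers in the table summed to 46.0, 36.7, 63.0 and 53.3 CPM in WT and to 74.4, 100, 159 and 99.1 CPM in N-LKO livers. All N-LKO livers were above all WT livers, with replicate 1 lowest and replicate 3 highest as for Itga8. Of the 9 cholangiocyte markers 6 were tested and 2 were called, Epcam (log2 fold change 1.55, adjusted p = 0.0293) and Spp1. Sox9 was not called in the main edgeR fit (log2 fold change 1.01, adjusted p = 0.105). It was called in 2 of the 8 alternative settings with all mice. The defining markers Krt19 and Krt7 ranged from 0.375 to 0.748 and from 0.250 to 0.442 CPM in WT, and from 0.815 to 1.06 and from 0.198 to 0.597 CPM in N-LKO livers. The 7 stellate cell markers summed to 74.9 to 114 CPM in WT and 83.5 to 126 CPM in N-LKO livers. None of them was called in the main edgeR fit, and 5 had a positive and 2 a negative log2 fold change, with a median of 0.18. Lrat (-0.15) and Colec11 (-0.26) were the lower ones. The 2 with an unadjusted p under 0.05 were Des (log2 fold change 0.63, adjusted p = 0.352) and Pdgfrb. Pdgfrb ranged from 3.06 to 5.52 CPM in WT and from 6.46 to 11.5 CPM in N-LKO livers (log2 fold change 1.04, adjusted p = 0.0688). It was called in 1 of the 8 alternative settings with all mice, and in none of the fits with a mouse left out. Of 7 portal fibroblast markers 6 were tested and 1 was called, Eln (log2 fold change 1.61, adjusted p = 0.0186). The tested markers had 4 positive and 2 negative log2 fold changes, the latter of Col15a1 (-0.39) and Entpd2 (-0.22). The sums of the 7 markers overlapped between the genotypes at 8.66 to 14.3 and 10.4 to 14.2 CPM. With a mouse left out, Epcam was called in 2 of 8 fits, those without N-LKO replicate 1 or 4 (adjusted p up to 0.0877, edgeR), and Eln in 5 of 8, all but those without WT replicate 2 or 4 or N-LKO replicate 3 (up to 0.0713). Epcam was also not called with limma-voom or the library number as a block (adjusted p up to 0.0661), nor Eln with that block (0.0535). For no list were the defining markers all at 0. The part of these cells in the changes of Itga8 and Lamb3 was not tested, and in whole liver fewer cells of a type and less RNA per cell cannot be told apart.

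Sums for sinusoidal endothelial cells (166 to 196 CPM in WT and 159 to 179 CPM in N-LKO), Kupffer cells (93.1 to 171 and 92.2 to 154 CPM) and T and NK cells (2.41 to 3.47 and 2.57 to 4.20 CPM) overlapped between the genotypes. The same was true of monocytes and dendritic cells, neutrophils, B cells, platelets and smooth muscle, each of which summed to less than 6 CPM in every liver. The 7 hepatocyte markers showed that the tissue is liver, at 72740 to 101700 CPM in WT and 76310 to 92460 CPM in N-LKO mice, and none was called by edgeR or had an unadjusted p under 0.05.

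**Figure D5:**
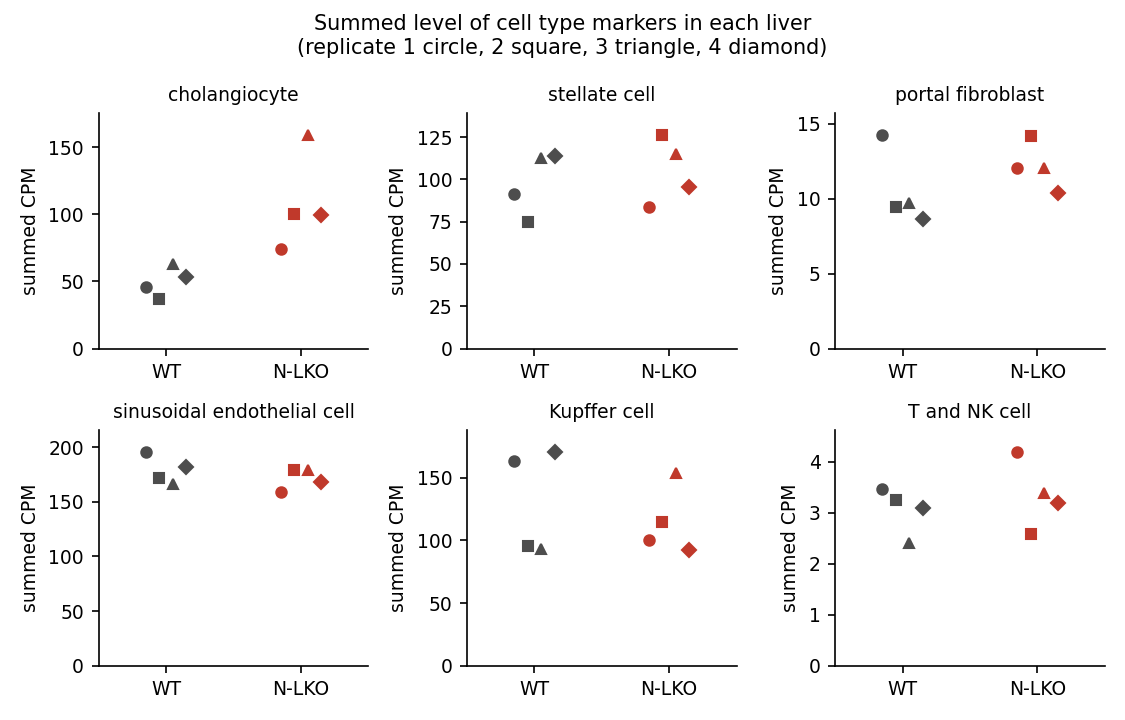
Summed CPM of cell type markers in each of the 4 WT and 4 N-LKO livers, with the mark showing the replicate and each vertical axis starting at 0. The cholangiocyte sums do not overlap, from 36.7 to 63.0 in WT and from 74.4 to 159 in N-LKO livers, and the other 5 panels overlap.

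Genes that work with these chains were read from the same test, in which 1.04% of all genes were called and 12.8% had an unadjusted p under 0.05. Of 13 basement membrane partners tested, such as nidogens and type IV collagens, none was called by edgeR or DESeq2, 4 had an unadjusted p under 0.05 and a higher level in N-LKO mice, and the median log2 fold change was 0.17. Col4a4, a type IV collagen chain, had the lowest p among them (log2 fold change 1.37, adjusted p = 0.0800). Its level was low, at 6 to 11 counts per WT library and 16 to 23 per N-LKO library. The others were Col4a2 (log2 fold change 0.43), Nid1 (0.36) and Col4a1 (0.34). Of 10 laminin receptors that are not integrins and the enzymes that add their sugars, none was called by edgeR or DESeq2, 1 in each direction had an unadjusted p under 0.05 and the median was 0.01. Bcam, a receptor of the Lama5 chain, was the higher of these (log2 fold change 0.72, adjusted p = 0.303). Of 23 genes of the adhesion complex inside the cell, none was called by edgeR and 1 by DESeq2. An unadjusted p under 0.05 was reached by 1 in each direction, and the median was 0.03, with Bcar1, a scaffold protein, at a log2 fold change of -0.55 (adjusted p = 0.119), the gene that DESeq2 called, and Lims1 at 0.24 (adjusted p = 0.185).

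Of 20 integrin ligands other than laminins that were tested, 1 was called by edgeR and 4 by DESeq2. An unadjusted p under 0.05 was reached by 7 with a higher and 1 with a lower level in N-LKO mice, 4 did not overlap, all of them higher, and the median log2 fold change was 0.16. Over all genes tested, 12.8% reached such a p in either direction, and 4.2% did not overlap and were higher. Spp1, which encodes osteopontin, a ligand of several RGD-binding integrins, was at 21.1, 16.1, 32.5 and 26.1 CPM in WT and at 37.4, 68.0, 105 and 61.9 CPM in N-LKO livers (log2 fold change 1.51, standard error 0.289, adjusted p = 0.0353). The genotypes did not overlap, and as for Itga8 the N-LKO livers ran from replicate 1 as the lowest to replicate 3 as the highest. Spp1 was called in 2 of the 8 fits with a mouse left out, those without N-LKO replicate 1 or WT replicate 3, and its adjusted p from the same edgeR test reached 0.0964 in the others. It was also not called with library totals, limma-voom or the library number as a block (adjusted p up to 0.0901). The other ligands with a higher level were not called in the main edgeR fit. Among them, Tgfb2 and Tgfb3, whose latent forms integrins bind, had log2 fold changes of 1.45 and 1.24 (adjusted p = 0.220 and 0.147), and Ltbp1, which holds latent TGF-beta in the matrix, one of 0.88 (adjusted p = 0.204). Thbs1, which encodes thrombospondin, had one of 1.11 (adjusted p = 0.0800), Mfge8, a bridging protein for Itgav integrins, one of 0.89 (adjusted p = 0.134) and Cdh1, which encodes E-cadherin, one of 0.46 (adjusted p = 0.201). Of these, DESeq2 called Tgfb3, Thbs1 and Mfge8. With a mouse left out, Thbs1 and Mfge8 were each called in 1 of 8 fits (adjusted p = 0.0412 and 0.0450, edgeR). Tgfb2 was low, at 1 to 16 counts per WT library and 18 to 39 per N-LKO library. Npnt, which encodes nephronectin, a known ligand of the Itga8 product, was picked out after its values had been seen. It was at 7.80, 2.75, 6.53 and 6.84 CPM in WT and at 1.42, 5.87, 1.99 and 1.63 CPM in N-LKO livers (log2 fold change -1.15, standard error 0.444, adjusted p = 0.305). N-LKO replicate 2 lay within the WT range, and WT replicate 2 was the lowest of its group. Npnt was not called with all mice, in the main fit or in any of the 8 alternative settings. It was called in 1 of the 8 fits with a mouse left out, that without N-LKO replicate 2 (log2 fold change -1.84, adjusted p = 0.0383, edgeR). In the others its adjusted p from the same test reached 0.53 and its log2 fold change was as small as -0.92.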

How the data were processed

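Libraries were made from rRNA-depleted liver RNA of 4 WT and 4 N-LKO mice, 1 per mouse, with a kit that the labels name TrueSeq Small RNA. The values deposited by the authors are expected counts, estimates of the reads of each gene that can have decimals. The study's methods name trimming, TopHat2 and cuffdiff, whereas the submitters' processing notes list STAR, Partek and mm9. Which program counted the reads, and whether it used strand, is not given in the sources used here. Gene coordinates in the table are those of GRCm38, with 19006 of 19642 genes matched to GENCODE M21, all 36 members included.

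Counts were rounded, filtered with edgeR's filterByExpr (minimum count 10, minimum total 15), scaled by the TMM method and fitted with edgeR 4.0.16 (R 4.3.3) in a model of genotype alone. Standard errors were derived from the F statistic, as the size of a log2 fold change over the root of F. CPM values used TMM library sizes, and CPM per kb used merged GENCODE exons. Promoters were read from RefSeq. Nothing in the labels says that replicates are other than separate mice of a group, and every pair of libraries differed by more than sampling noise (chi-square per degree of freedom 11.8 to 68.6). Tested on simulated counts for 14214 genes with 200 changed by a fold of 2, edgeR recovered 73% with 7 false calls, DESeq2 78.5% with 21 and limma-voom 72.5% with 5.

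Alternatives were RLE scaling, library totals, a filter of at least 10 counts in every mouse, no filter, a prior count of 0.5 in place of 2 for log2 CPM, replicate blocks, DESeq2 1.42.0, limma-voom (limma 3.58.1), Lamb3 left out and each mouse left out. Members were named with their levels, except that the results of 1 member and 1 partner gene are not reported here. Those called or with an unadjusted p under 0.05 have their value in each mouse, and partner genes were named if called or if among the 8 with the largest change in their list and with such a p. The members and lists were chosen with earlier results of these data known.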

Additional observations from a re-analysis of the deposited data

Results flagged for a closer look

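In 5 of the 64 groups of 4 livers looked at, 1 liver lay far from the other 3 by Dixon's criterion. Chance alone gives about 1 such group in 20, or 3.2 here. Nus1 was at 82.0 CPM in WT replicate 1 and between 89.7 and 90.5 CPM in the other WT livers. Lamb3 was at 11.3 CPM in N-LKO replicate 2, with the other N-LKO livers between 5.22 and 5.97 CPM. The remaining 3 were in N-LKO replicate 1. There Lamb1 was at 5.78 CPM (others 8.78 to 9.37), Lama1 at 0.340 CPM (others 1.53 to 1.72) and Itga7 at 6.86 CPM (others 5.43 to 5.54).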

How the results depend on the processing

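Itga8 and Lamb3 were called with RLE scaling, library totals, a filter of at least 10 counts in every mouse, no filter, both replicate blocks, DESeq2, limma-voom and each mouse left out, with largest adjusted p-values of 0.0421 for Itga8 and 0.0401 for Lamb3. DESeq2 called 5 members, 4 of them higher, and leaving out Lamb3 left 1 called and 0 lower. Over all genes 148 were called, against 98 with at least 10 counts in every mouse, 394 with DESeq2 and 71 (without WT replicate 4) to 173 (without N-LKO replicate 2) with 1 mouse left out. DESeq2 called 1 gene of the adhesion complex and 4 integrin ligands. Of the ligands, where edgeR called 1, 0 were called with library totals, 0 with limma-voom and from 0 to 3 with 1 mouse left out. The members whose genotypes did not overlap numbered from 8 to 14 with 1 mouse left out, the most without N-LKO replicate 1, and all genes without overlap made up 10.1% to 12.8% in these smaller sets.

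The labels do not say whether samples with the same replicate number are linked in any other way. The correlation of their deviations from the group means was between -0.0853 and 0.0625 for the numbers in the titles and between -0.0092 and 0.166 for the library numbers. These values were not compared with those of other pairs, so they do not decide whether mice were paired. With the title number as a replicate block, 131 genes and 2 ligands were called, and with the library number as a block, 113 genes and 0 ligands. The members called were Itga8 and Lamb3 under both.

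Of 248 fold changes of single genes with 1 mouse left out, 16 changed sign, none of them of a called gene. They ranged from -0.239 to 0.0905 for Itga4, -0.0874 to 0.196 for Itga9, -0.741 to 0.0330 for Itgam, -0.0964 to 0.330 for Itgb2, -0.0740 to 0.177 for Lama3, -0.185 to 0.0895 for Lama4 and -0.0522 to 0.156 for Lamc1. Library totals moved the median log2 fold change of all genes to -0.04 and that of the members to 0.09. Depth limits the 6 untested members, and 3 counts of a library's total are the limit that a count of 0 allows. These limits cover counting error only.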
